A study of Mus musculus with 72 samples.

Results

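MicroRNAs (miRNAs) were measured by small RNA sequencing of the right cerebellum and the left cortex of uninjured (naive) wild-type male mice, and the miRNAs of the 2 regions were compared. The members are the 11 libraries whose count columns carry the names of these groups, 6 of cerebellum and 5 of cortex, of 71 libraries in the deposited tables, joined by miRNA name over 1927 mature miRNA features. The cerebellum group is wild type, naive, n = 6. The cortex group is wild type, naive, n = 5 (the labels list 6 samples, and 1 was not analysed here). Both groups carry the time label of the injured mice, 12 weeks after a nerve crush that was done at 12 weeks of age, and none of the naive mice was injured. The labels call the samples of a group biological replicates. The wider study also holds wild-type mice with crush and Thap1+/- mice with or without crush, in cerebellum, cortex and striatum; Thap1 is the gene of the dystonia DYT6. RNA of the cerebellum was prepared with a miRNeasy mini kit and RNA of the cortex with a miRNeasy micro kit, so the kit and the region cannot be told apart in any difference below. Libraries are named by the number that ends their column (31, 67, 96, 118, 124 and 136), and the cortex values of a miRNA are always given in the order 118, 124, 31, 67 and 96.

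A miRNA is a short RNA that is cut from a hairpin and guides Argonaute proteins to messenger RNAs, chiefly through its seed, bases 2 to 8. Each hairpin can give a 5p and a 3p arm, of which either usually dominates, and neighbouring hairpins are often cut from the same primary transcript. The cerebellum derives from the hindbrain and is dominated by granule cells, while the cortex derives from the forebrain and is dominated by glutamatergic pyramidal neurons. miRNAs encoded in Hox clusters are known from parts of the hindbrain and from the spinal cord, and are not markers of the cerebellum as such. Several miRNAs such as miR-132 follow neuronal activity through the transcription factor CREB.

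The sequences below are those of miRNAs described in the text, in lower case with the seed in capitals, from RefSeq (GRCm38.p6). The first set was higher in cerebellum. miR-206-3p had the largest difference among abundant miRNAs, miR-10a-5p and miR-10b-5p lie in Hox clusters and share a seed, and miR-1298-5p and miR-448-3p lie in introns of Htr2c.
miR-206-3p: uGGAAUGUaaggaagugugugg
miR-10a-5p: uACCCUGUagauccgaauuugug
miR-10b-5p: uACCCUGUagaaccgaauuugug
miR-1298-5p: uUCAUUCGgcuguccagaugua
miR-448-3p: uUGCAUAUguaggaugucccau
miR-204-5p: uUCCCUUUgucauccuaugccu
miR-183-5p: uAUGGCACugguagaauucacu
miR-96-5p: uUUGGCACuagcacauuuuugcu
miR-182-5p: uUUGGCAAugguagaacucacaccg
The second set shares the seed AGCAGCA of the miR-15/16/195 family, whose members did not all move alike.
miR-195a-5p: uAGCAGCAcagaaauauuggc
miR-497a-5p: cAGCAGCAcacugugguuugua
miR-15a-5p: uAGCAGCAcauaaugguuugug
miR-15b-5p: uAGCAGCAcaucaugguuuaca
miR-16-5p: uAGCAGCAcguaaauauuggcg
miR-322-5p: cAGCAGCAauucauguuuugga
The third set was lower in cerebellum. miR-132-3p and miR-212-3p share a seed and a transcript, as do miR-221-3p and miR-222-3p.
miR-139-5p: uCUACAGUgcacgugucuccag
miR-132-3p: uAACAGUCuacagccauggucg
miR-212-3p: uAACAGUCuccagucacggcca
miR-31-5p: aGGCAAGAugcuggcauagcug
miR-137-3p: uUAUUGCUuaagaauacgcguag
miR-128-3p: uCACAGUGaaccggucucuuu
miR-221-3p: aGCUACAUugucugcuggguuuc
miR-222-3p: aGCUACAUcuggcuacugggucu

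Total counts ran from 9067330 to 12381200 per library, with 11608500 ± 605354 in cerebellum and 9942120 ± 573500 in cortex (SD, n = 6 and 5). A count was seen for 649 ± 13.0 features in cerebellum and 637 ± 4.83 in cortex, and 1037 of the 1927 features had none in any of the 11 libraries. The first principal component held 76.7% of the variance and separated the regions, with cerebellum libraries between -16.4 and -12.7 and cortex libraries between 16.3 and 20.7. let-7 and miR-98 took 58.4% ± 2.25 of the counts of the cerebellum libraries, below the group means of 61.2% to 68.5% in the 3 other cerebellum groups. They took 55.2% ± 2.17 of the counts of the cortex libraries (51.5% to 56.6%), above the group means of 45.9% to 48.7% in the 3 other cortex groups, although 2 of those groups reached 51.9% and 56.1% in single libraries. Results are therefore set beside the same contrast in the 3 other groups where this matters. Levels are CPM, counts relative to the TMM-scaled library size, given with SDs. Fold changes are log2 values, cerebellum over cortex, given with standard errors, and adjusted p-values are Benjamini-Hochberg values from edgeR's quasi-likelihood test over all miRNAs tested.

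Of 522 miRNAs with enough counts to be tested, 367 differed between the regions (70.3%), 195 higher (37.4%) and 172 lower (33%) in cerebellum. The median log2 fold change over all tested was 0.01. Differences beyond 2-fold, tested as such with edgeR's glmTreat, were found for 141 (27%), 75 higher (14.4%) and 66 lower (12.6%). For 284 of the 522 (54.4%) the 6 cerebellum values and the 5 cortex values did not overlap. Counts within a list of miRNAs are read against these shares. A difference in bulk tissue cannot tell fewer cells of a type apart from less miRNA per cell. Upper-quartile scaling moved the median of all miRNAs to -0.12 and the split to 165 higher and 201 lower, so the direction of small differences depends on the scaling.

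**Figure D1:**
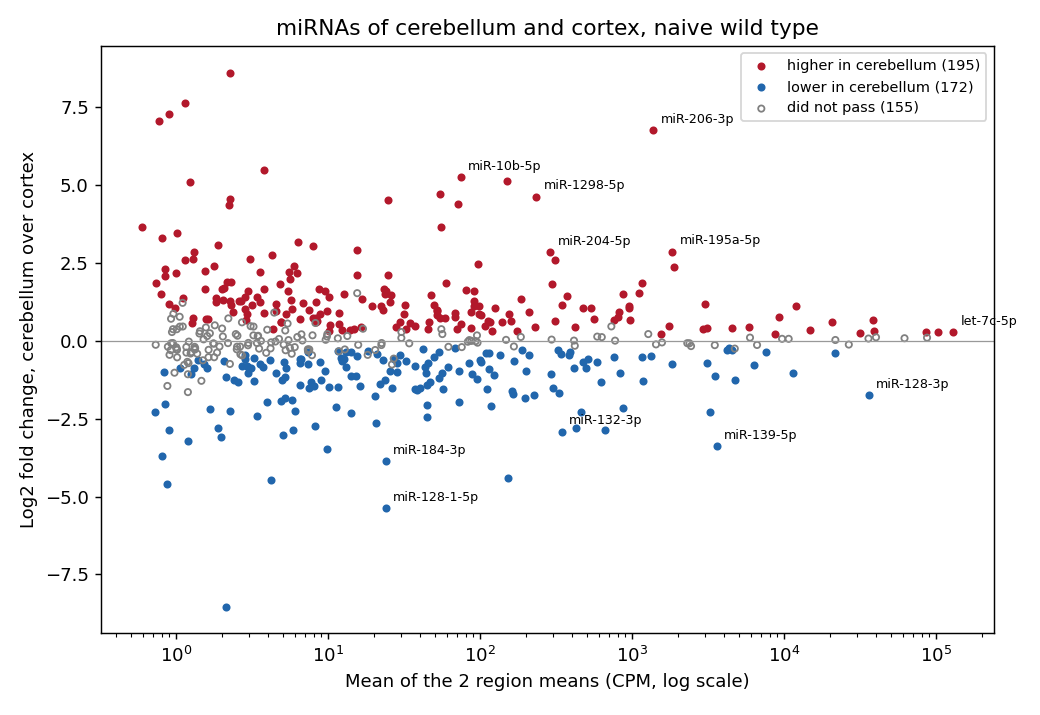
Log2 fold change of cerebellum over cortex (y axis) against the mean level of both regions in CPM (x axis, log scale) for the 522 miRNAs tested in naive wild-type mice; filled points passed at an adjusted p of 0.05, red higher and blue lower in cerebellum. Labels mark miRNAs described in the text, from 6.78 for miR-206-3p to -5.36 for miR-128-1-5p.

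The largest difference of any abundant miRNA was that of miR-206-3p, a member of the miR-1 family best known from skeletal muscle. Its 6 cerebellum libraries ran through 1925, 2734 and 3611 CPM (lowest, median, highest), against 18.1, 22.1, 32.6, 30.4 and 20.5 CPM in the cortex libraries. The regions were far apart in every library, with a log2 fold change of 6.78 ± 0.23 (adjusted p = 7.5e-11). In the wild-type crush, Thap1+/- naive and Thap1+/- crush groups the same contrast gave 6.61, 7.49 and 7.34. Naive wild-type striatum lay between, with a log2 fold change of 3.72 for cerebellum over striatum and 3.11 for striatum over cortex, both past the threshold in a joint fit of the 3 regions, in which 68.4% of 579 miRNAs differed between cerebellum and striatum (31.1% higher, 37.3% lower) and 54.6% between striatum and cortex (35.8% higher, 18.8% lower). The comparisons with striatum share libraries with each other and with the main contrast, so their values are only set side by side. Mir206 lies at chr1:20679010-20679082 (GRCm38) in an exon of the noncoding Gm28653.

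The other muscle miRNAs were measured to see whether the whole group followed. All 4 tested of 6 listed were higher in cerebellum. miR-133a-3p/133b-3p, whose miR-133b copy sits near miR-206, averaged 9.96 ± 1.62 CPM in cerebellum and 1.84 ± 0.652 CPM in cortex (2.42 ± 0.21). miR-1a-3p, which has the seed of miR-206, had 1410.2, 1977 and 2620.0 CPM in cerebellum and 1345, 1513, 1233, 1604 and 1598 CPM in cortex, overlapping ranges with a log2 fold change of 0.47 ± 0.14. miR-499-5p, encoded in a myosin heavy chain gene, gave 1.14 ± 0.13 here but 0.13, 0.48 and -0.34 in the 3 other groups. miR-206-3p made up most of the summed level of this list in cerebellum, while miR-1a-3p made up most of it in cortex. Upper-quartile scaling left 3 of the 4 as calls.

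miRNAs encoded in Hox clusters, which set position along the hindbrain and spinal cord, were far higher in cerebellum. Of 7 listed 5 passed the low-count filter, whose cut-off is 10 counts in a library of median size, and the 2 that reached its cut-off in both regions, miR-10b-5p and miR-10a-5p, were both higher, beyond 2-fold. The other 3 reached it in cerebellum alone, so the filter itself set their direction. miR-10b-5p, from the Hoxd cluster, had 71.0, 131 and 221 CPM in cerebellum, against 3.76, 3.89, 2.42, 4.50 and 4.19 CPM in cortex. miR-10a-5p, from the Hoxb cluster, had 75.7, 286 and 469 CPM in cerebellum, against 11.1, 6.18, 4.84, 9.73 and 9.21 CPM in cortex. The ranges of both are far apart, and the log2 fold changes were 5.26 ± 0.35 and 5.15 ± 0.48. Those 3, the passenger arms of both and miR-615-3p of the Hoxc cluster, had 0 counts in every cortex library. Against a floor of 3 counts over the cortex group, miR-10a-3p at 4.52 CPM was at least 77.6-fold higher, miR-615-3p at 2.27 CPM at least 39.0-fold higher and miR-10b-3p at 1.79 CPM at least 30.8-fold higher in cerebellum. Mir10b lies at chr2:74726070-74726137 in an intron of the annotated Hoxd3 and Hoxd4 transcripts, and Mir10a at chr11:96317165-96317274 outside annotated genes.

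The Hox miRNAs varied between cerebellum libraries. miR-10a-5p had 469 and 454 CPM in libraries 31 and 118, 346, 225 and 181 CPM in 96, 124 and 136, and 75.7 CPM in 67. Summed over the 5 members, the list ranged from 150.4 to 703 CPM. The 3 libraries with the most (31, 118 and 96) had 2650, 1925 and 2461 CPM of miR-206-3p and the 3 with the least (124, 136 and 67) had 2819, 2884 and 3611 CPM.

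All 6 tested arms of the 5 hairpins that lie inside Htr2c, the serotonin 2C receptor gene on the X chromosome, were higher in cerebellum, with log2 fold changes from 2.75 to 4.71 and a median of 4.12. Of these, 4 reached the filter's cut-off in both regions and 2 in cerebellum alone, among them miR-1912-3p. miR-1298-5p had 187, 450.0 and 714 CPM in cerebellum and 25.5, 19.8, 12.3, 9.18 and 23.3 CPM in cortex (4.63 ± 0.43, adjusted p = 5.28e-07). miR-448-3p had 48.9, 108 and 169 CPM in cerebellum and 4.82, 3.49, 4.0, 3.85 and 3.72 CPM in cortex (4.71 ± 0.36). miR-1264-3p averaged 102 ± 45.0 CPM in cerebellum and 8.01 ± 2.61 CPM in cortex (3.68 ± 0.36). The ranges did not overlap for these 3. miR-1912-3p and miR-764-3p, which the naming rule left out and which were picked because they share the host, gave 4.56 ± 0.63 and 2.91 ± 0.27. These 5 were above cortex in striatum as well, and cerebellum exceeded striatum for miR-1298-5p and miR-448-3p (2.64 and 2.62) while miR-1264-3p did not pass (-0.24). Mir1298 lies at chrX:147064905-147065002 and Mir448 at chrX:147158210-147158321, both in introns of Htr2c on its strand.

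Htr2c is known for its high expression in the choroid plexus, and the miRNAs of that tissue and of ciliated cells were also higher in cerebellum. All 6 tested of 9 listed were higher, each beyond 2-fold (5 of them reached the filter's cut-off in both regions and 1 in cerebellum alone), and their summed level was 845 to 1524 CPM in cerebellum and 178 to 225 CPM in cortex. miR-204-5p, from an intron of the cation channel gene Trpm3 and abundant in pigmented and choroid epithelium, had 382, 499 and 629 CPM in cerebellum and 63.4, 61.1, 63.8, 79.5 and 80.0 CPM in cortex (2.87 ± 0.14). miR-34c-5p, one of the miR-34/449 miRNAs needed for motile cilia, had 303, 502 and 793 CPM in cerebellum and 99.1, 86.4, 73.9, 79.3 and 101 CPM in cortex (2.59 ± 0.24). miR-34b-5p gave 3.05 ± 0.34 and miR-449a-5p 1.67 ± 0.16. The cerebellum values of these miRNAs and of the Htr2c group moved over libraries in a like way. The Htr2c arms summed to 1094 and 995 CPM in libraries 118 and 96, 785 and 624 CPM in 124 and 31, and 338 and 324 CPM in 67 and 136, and the choroid and cilia list to 1522 and 1525, 1090.1 and 1181, and 918 and 845 CPM in the same order. In cerebellum libraries 118, 31 and 96 the Hox list had 682, 703 and 512 CPM. It had 338, 283 and 150 CPM in 124, 136 and 67. In the same order the miR-183 cluster had 255, 229 and 212 CPM, against 159, 147 and 163 CPM. Being high in 118 and 96 and low in 67 and 136 was therefore not particular to the Htr2c and choroid groups. miR-206-3p and the red cell and epithelial lists did not share this pattern. The part of choroid plexus tissue in the differences between the regions was not tested.

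**Figure D2:**
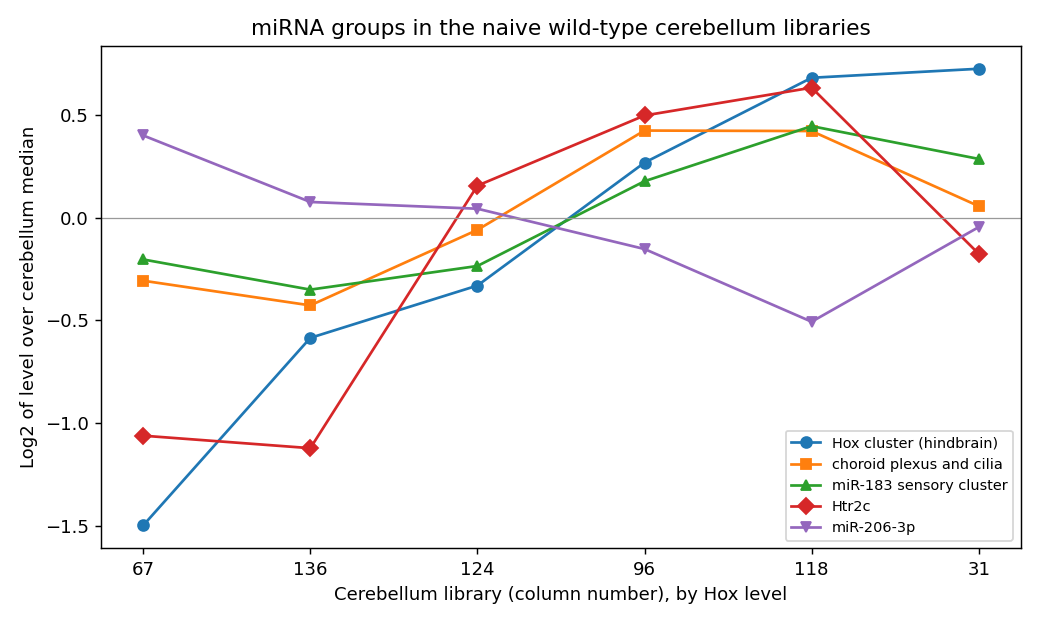
Summed CPM of 4 miRNA groups and the CPM of miR-206-3p in each of the 6 naive wild-type cerebellum libraries, as log2 of the value over the group's median in cerebellum (y axis), with libraries on the x axis in the order of their Hox level. The Hox, Htr2c and choroid groups were lowest in libraries 67 and 136, and miR-206-3p was highest in 67.

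The miR-183/96/182 cluster, known from sensory hair cells and photoreceptors, was at low levels in cortex and higher in cerebellum. Of 4 tested arms miR-182-5p and miR-183-5p reached the filter's cut-off in both regions and were higher, while miR-96-5p and miR-183-3p reached it in cerebellum alone. miR-182-5p, the most abundant of them, had 103, 129 and 179 CPM in cerebellum and 5.5, 5.78, 5.26, 3.03 and 12.3 CPM in cortex (4.40 ± 0.31, adjusted p = 3.7e-08). miR-183-5p averaged 47.6 ± 10.9 CPM in cerebellum and 2.02 ± 1.17 CPM in cortex (4.54 ± 0.29), miR-96-5p gave 4.37 ± 0.53 and miR-183-3p 5.48 ± 0.51. The cluster lies on chromosome 6, Mir183 at chr6:30169668-30169737, Mir96 at chr6:30169446-30169551 and Mir182 at chr6:30165918-30165992. The 3 mature sequences given above have seeds that differ from one another. In the 3 other groups miR-182-5p gave 4.61, 4.92 and 3.97.

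miR-195a-5p and miR-497a-5p, neighbours on chromosome 11 that act on cyclins and other cell cycle genes, were abundant in cerebellum. miR-195a-5p had 2401, 3279.7 and 3658 CPM in cerebellum, against 453, 431, 369.5, 473 and 472 CPM in cortex. miR-497a-5p had 2326, 3142 and 4087 CPM in cerebellum, against 741, 606, 502, 579.7 and 597 CPM in cortex. Neither overlapped, with log2 fold changes of 2.87 ± 0.12 and 2.38 ± 0.15. Mir497 and Mir195a lie at chr11:70234717-70234800 and chr11:70235042-70235135, and the tested passenger arm of miR-195a was also higher. Striatum was lower than cortex for both (-1.29 and -1.5), so the order of levels was cerebellum, cortex, striatum.

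The other miRNAs with the AGCAGCA seed differed in size and direction. miR-16-5p, the most abundant, averaged 42930.3 ± 4389 CPM in cerebellum and 34349 ± 1915 CPM in cortex (0.32 ± 0.08). miR-15a-5p and miR-15b-5p gave 1.04 ± 0.11 and 1.05 ± 0.17. In the 3 other groups miR-15a-5p gave -0.25, -0.17 and -0.28, and miR-15b-5p did not pass in any of them. Their difference in naive wild type was larger than the mean of the other groups (by 1.33 and 1.00, both past the threshold). miR-322-5p, from the X chromosome, was lower (-0.68 ± 0.09). Of the 6 members, 5 rose and 1 fell, and under upper-quartile scaling 4 rose.

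Several further abundant miRNAs had log2 fold changes above 1. miR-34a-5p, a target of p53 that promotes neuronal differentiation, had 14248, 16005 and 18824 CPM in cerebellum and 7902, 7342, 6449, 7596 and 7889 CPM in cortex (1.13 ± 0.08). miR-130a-3p averaged 1810.2 ± 169.8 CPM in cerebellum and 500.3 ± 42.8 CPM in cortex (1.86 ± 0.09), miR-598-3p 1649.5 ± 272 CPM in cerebellum and 572 ± 134 CPM in cortex (1.53 ± 0.16) and miR-99a-5p 1281 ± 117 CPM in cerebellum and 448 ± 26.4 CPM in cortex (1.52 ± 0.08). Each of these kept apart in all 11 libraries. Of the other miRNAs with the seed of miR-99a, miR-100-5p (0.71 ± 0.09) and miR-99b-5p (0.66 ± 0.14) rose by less. miR-378a-3p/378b/378c gave 1.17 ± 0.09, and miR-298-5p 1.35 ± 0.16. miR-187-3p averaged 541 ± 33.7 CPM in cerebellum and 199.7 ± 53.5 CPM in cortex (1.44 ± 0.14), although striatum was far above both (-3.05 for cerebellum over striatum). miR-26a-5p and miR-26b-5p, among the most abundant miRNAs outside let-7, rose by 0.68 and 0.75.

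The oligodendrocyte miRNAs, which drive myelinating cells out of the cell cycle, had 4 of 5 tested members higher, 1 of which reached the filter's cut-off in cerebellum alone, and 1 lower. miR-338-3p, from an intron of Aatk, had 3471, 4080.1 and 4727 CPM in cerebellum and 2065, 1969.5, 1654, 1783 and 1760.0 CPM in cortex (1.17 ± 0.09). miR-219a-2-3p averaged 135 ± 20.1 CPM in cerebellum and 61.4 ± 5.42 CPM in cortex (1.13 ± 0.11). miR-23a-3p/23b-3p, which is also made by other glia and vessels, was lower (-0.43 ± 0.07). miR-338-3p and miR-219a-2-3p were higher in striatum than in cortex too (0.73 and 0.90), with smaller differences between cerebellum and striatum (0.49 and 0.27).

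**Figure D3:**
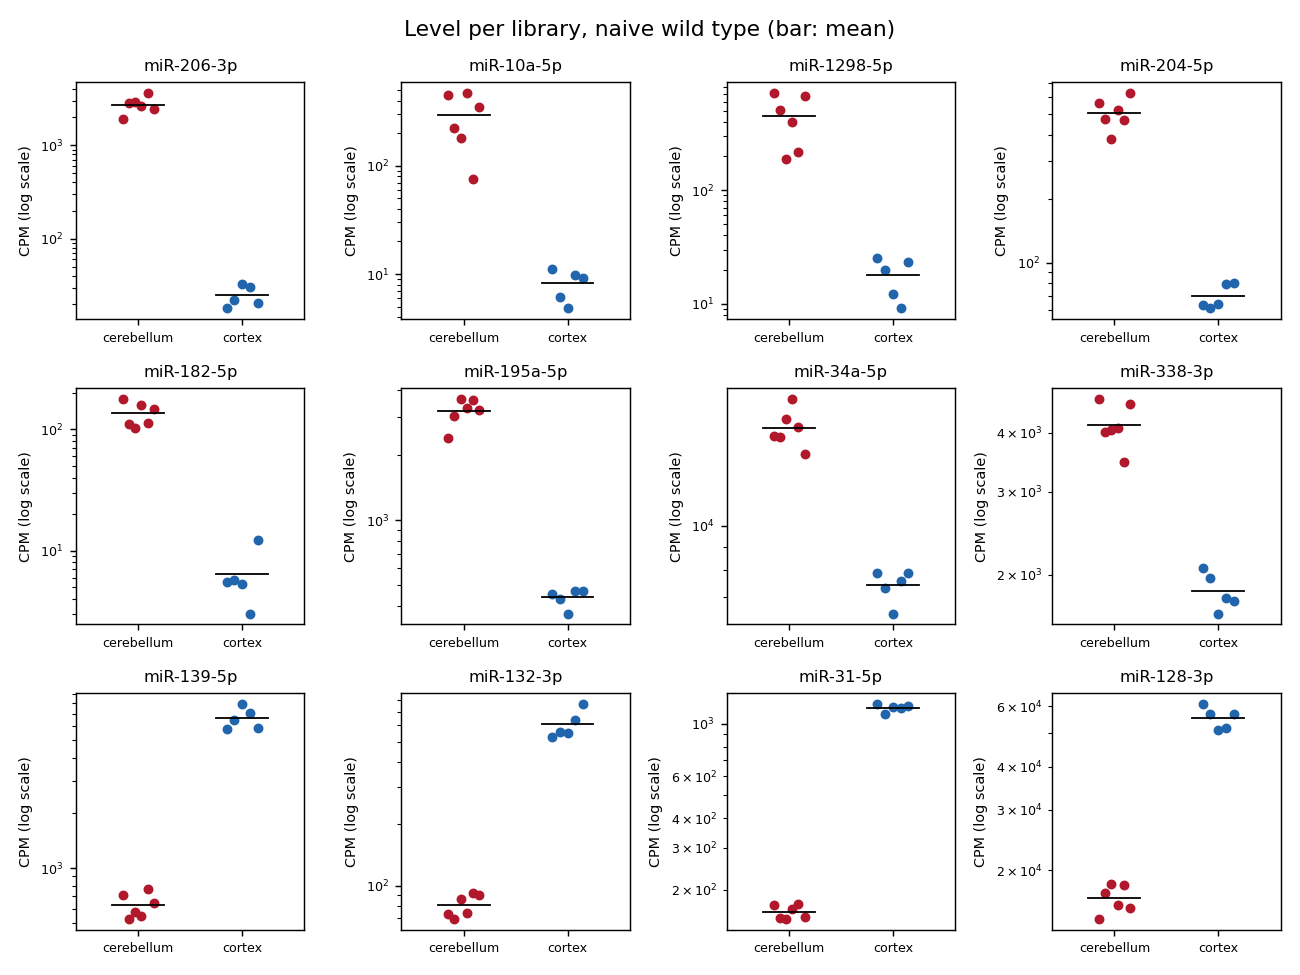
CPM (log scale) of 12 miRNAs in each naive wild-type library, cerebellum (red, n = 6) left of cortex (blue, n = 5), with a bar at the group mean. The 8 miRNAs of the upper rows were higher and the 4 of the bottom row lower in cerebellum, and no cerebellum value overlaps a cortex value.

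The Sfmbt2 cluster, a large family of near-identical miRNAs in an intron of the imprinted Sfmbt2 gene, was at low levels. Of 55 listed 22 were tested, but 14 of these reached the filter's cut-off in cerebellum alone, so the filter favoured higher values there. Of the 8 that reached it in both regions, 6 were higher and 1 lower. Its summed level was 292 to 368 CPM in cerebellum and 114 to 174 CPM in cortex. miR-467e-5p averaged 129 ± 15.4 CPM in cerebellum and 53 ± 8.39 CPM in cortex (1.29 ± 0.12), miR-669c-5p gave 0.72 ± 0.15 and miR-467c-5p 1.5 ± 0.15. miR-466i-5p went the other way (-1.51 ± 0.32). How counts divide among these copies is uncertain, because the members differ by few bases.

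On the lower side, miR-139 stood out at high abundance. miR-139-5p, from an intron of the phosphodiesterase gene Pde2a and known to restrain growth factor signalling, had 526, 610.4 and 773 CPM in cerebellum, against 5729.9, 6411, 7882, 7047 and 5804 CPM in cortex. miR-139-3p had 9.34, 13.9 and 19.1 CPM in cerebellum, against 235, 284, 322, 359.7 and 250.5 CPM in cortex. No library of the 2 regions overlapped, and the log2 fold changes were -3.38 ± 0.12 and -4.39 ± 0.19. Striatum lay above cortex for both arms (1.72 and 1.54), so cerebellum had by far the lowest level of the 3 regions. Mir139 lies at chr7:101475376-101475443.

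The activity-regulated miR-132/212 cluster, induced through CREB by synaptic activity, was lower in all 4 arms. miR-132-3p had 68.9, 80.1 and 91.9 CPM in cerebellum, against 527, 559, 549.9, 637 and 761 CPM in cortex (-2.91 ± 0.12, adjusted p = 2.56e-10). miR-132-5p averaged 108 ± 15.3 CPM in cerebellum and 749 ± 86.6 CPM in cortex (-2.80 ± 0.11), and miR-212-3p and miR-212-5p gave -2.62 ± 0.12 and -2.75 ± 0.20. The 3 other groups gave nearly the same value for miR-132-3p, with -2.94, -2.86 and -2.92. Cortex was above striatum as well (-0.97 for striatum over cortex), so the order was cortex, striatum, cerebellum. miR-134-5p, the remaining activity-regulated miRNA and a brake on dendritic spine growth, was higher (0.84 ± 0.07). Mir212 and Mir132 lie at chr11:75173388-75173478 and chr11:75173682-75173747.

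Of 14 neuron-enriched miRNAs, 8 were lower, 5 higher and 1 did not pass, with a median of -0.52. miR-128-3p, which limits neuronal excitability, was the most abundant miRNA of cortex outside let-7, and had 14395, 16483 and 18276 CPM in cerebellum, against 60881, 56903, 51302, 51731 and 56900.0 CPM in cortex (-1.75 ± 0.08). miR-137-3p, which acts on synaptic vesicle genes, had 713, 1099 and 1448 CPM in cerebellum and 6069, 5459.8, 5961, 4622 and 4757 CPM in cortex (-2.30 ± 0.15). miR-383-5p fell by more at a lower level (-2.45 ± 0.12). In contrast, both arms of miR-9, which promotes neuronal differentiation, were slightly higher: miR-9-3p averaged 24952 ± 1341 CPM in cerebellum and 16247 ± 1476 CPM in cortex (0.62 ± 0.07) and miR-9-5p gave 0.27 ± 0.07. miR-124-3p, the defining miRNA of neurons, was abundant in both regions, with 16565 ± 2580.3 CPM in cerebellum and 13025 ± 1063 CPM in cortex (0.35 ± 0.10), a call lost under upper-quartile scaling. Upper-quartile scaling left 2 of the 5 higher members as calls and all 8 lower ones. miR-128 has 2 hairpins that give the same 3p arm, and the 5p arm of the first, miR-128-1-5p, differed by more than the shared arm, with 0.507, 1.08 and 2.08 CPM in cerebellum and 47.2, 47.7, 43.6, 49.8 and 45.7 CPM in cortex (-5.36 ± 0.25).

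Other miRNAs with low levels in cerebellum were spread over the genome. miR-31-5p, known from control of cell motility, had 150.4, 159 and 175 CPM in cerebellum and 1208, 1099, 1173, 1157 and 1189 CPM in cortex (-2.85 ± 0.07), with the smallest adjusted p of all miRNAs (2.35e-12). miR-708-5p averaged 157 ± 14 CPM in cerebellum and 756 ± 44.8 CPM in cortex (-2.27 ± 0.08) and its other arm gave -1.62 ± 0.11. miR-335-5p, from an intron of the imprinted gene Mest, averaged 2808 ± 294 CPM in cerebellum and 6649 ± 390.2 CPM in cortex (-1.24 ± 0.08). The 4 arms of the X-linked pair miR-221 and miR-222, which act in vessel and glial growth, were all lower, with -1.5 ± 0.10 for miR-221-3p and -2.05 ± 0.12 for miR-222-5p. miR-744-5p gave -2.16 ± 0.28, with a wide spread in cerebellum of 141, 315 and 577 CPM, against 1280.3, 1247, 1271, 1728 and 1575 CPM in cortex. miR-1981-5p (-2.08 ± 0.12), miR-1224-5p (-1.83 ± 0.12), miR-873a-5p (-1.72 ± 0.14), miR-676-3p (-1.66 ± 0.10), miR-342-3p (-1.01 ± 0.12) and, at low levels, miR-184-3p (-3.87 ± 0.18) were lower as well.

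The imprinted Dlk1-Dio3 locus on chromosome 12, which holds a large group of brain miRNAs, was lower on balance. Of 78 tested of 112 listed arms, 45 were lower, 10 higher and 23 did not pass, with a median of -0.46, against 172 lower and 195 higher of all 522. Among the 71 arms that reached the filter's cut-off in both regions, 42 were lower and 10 higher. The summed level was 23390.0 to 25352 CPM in cerebellum and 29863 to 33975 CPM in cortex. The differences were modest for the most abundant members, with -0.34 ± 0.07 for miR-127-3p, -0.69 ± 0.08 for miR-411-5p and -0.28 ± 0.07 for miR-382-5p. miR-485-5p (-1.71 ± 0.20) and miR-323-5p (-2.31 ± 0.25) were lower by more. Of the 46 tested arms of the cluster at chr12:109709060-109747960 30 were lower and 5 higher, and of the 19 of the cluster at chr12:109563692-109595388 12 were lower and 1 higher. miR-337 differed in its 2 arms: miR-337-5p averaged 354 ± 42.9 CPM in cerebellum and 889 ± 36.5 CPM in cortex (-1.33 ± 0.09), while miR-337-3p averaged 114 ± 11.9 CPM in cerebellum and 59.4 ± 12.1 CPM in cortex (0.94 ± 0.13). In the 3 other groups miR-337-3p gave 0.06, 0.12 and -0.99.

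**Figure D4:**
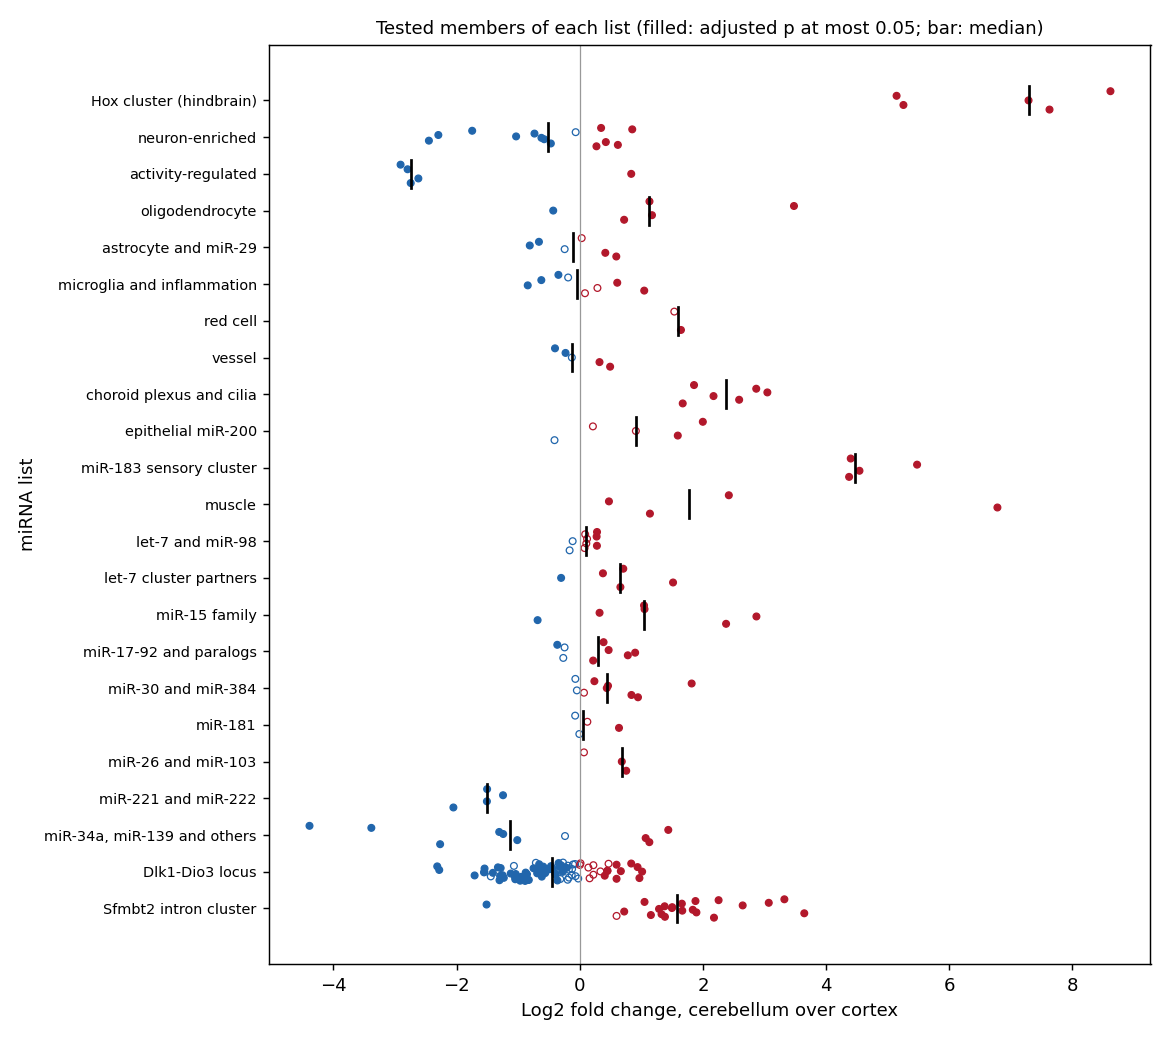
Log2 fold change of cerebellum over cortex (x axis) of each tested member of 23 miRNA lists (rows), filled where the adjusted p is at most 0.05, with a bar at the list's median. The muscle list, whose 4 tested members all reached the low-count cut-off in both regions, lies wholly above 0 and miR-221/222 wholly below 0.

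The let-7 and miR-181 families differed little. The let-7 and miR-98 guide strands, which hold growth-promoting genes down in mature tissue, were close: 3 of 9 tested of 10 listed rose, and none fell, with a range of -0.16 to 0.28. let-7c-5p, the most abundant miRNA of both regions, averaged 141093 ± 17469 CPM in cerebellum and 116688 ± 6461 CPM in cortex (0.27 ± 0.08). let-7b-5p averaged 63588 ± 10243 CPM in cerebellum and 59832 ± 5208 CPM in cortex, a difference within the spread of libraries (0.09 ± 0.11, adjusted p = 0.47). The family's direction turned with scaling, with 0 higher and 1 lower under upper-quartile scaling and 3 higher and 2 lower with library totals alone. It also depended on the group, as let-7c-5p gave 1.14, 0.89 and 1.38 in the 3 other groups, where the mean let-7 share of the cortex libraries was lower. Of 4 miR-181 members only miR-181c-5p passed (0.64 ± 0.11), and the most abundant, miR-181a-5p, gave -0.07 ± 0.12. In the miR-30 family with miR-384, 6 of 9 rose and none fell, with log2 fold changes from -0.07 to 1.82 and a median of 0.44. miR-30b-5p rose the most (1.82 ± 0.09), beyond 2-fold, while miR-30d-5p rose by 0.44 and miR-30a-5p by 0.24. The call of miR-30a-5p was lost under each of the 3 other scalings. Just 9 of the 522 miRNAs had a 95% interval of the log2 fold change within 0.25 of 0, among them miR-103-3p/107-3p (0.07 ± 0.06), miR-30e-5p (0.07 ± 0.08), miR-30a-3p (-0.07 ± 0.08), miR-30e-3p (-0.05 ± 0.08) and miR-324-5p (0.01 ± 0.11).

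Markers of cells that both regions share were measured to see how far the tissues differ in make-up. Of 5 vessel arms 2 were lower and 2 higher: miR-126a-3p of the endothelium averaged 18671 ± 1345 CPM in cerebellum and 24669 ± 1643 CPM in cortex (-0.40 ± 0.07) and miR-145a-5p of smooth muscle 43.7 ± 7.97 CPM in cerebellum and 31.1 ± 4.81 CPM in cortex (0.49 ± 0.14), and neither of the 2 higher arms passed under upper-quartile scaling. Of 8 microglia and inflammation miRNAs 2 rose, 3 fell and 3 did not pass. miR-21a-5p had 639, 737 and 786 CPM in cerebellum and 373, 369, 309, 329.6 and 369 CPM in cortex (1.05 ± 0.08), whereas miR-142a-3p and miR-223-3p, the defining miRNAs of white blood cells and microglia, gave -0.35 ± 0.13 and 0.08 ± 0.16, with adjusted p-values of 0.034 and 0.644. The call of miR-142a-3p was lost when any of 4 single libraries was left out. Red cell miRNAs were low in both regions, and of 2 tested of 4 listed, 1 was higher and 1 did not pass. miR-486a-5p/486b-5p averaged 123 ± 52.8 CPM in cerebellum and 39.2 ± 19.0 CPM in cortex (1.64 ± 0.33). Its highest values were in library 67 of each region (214 and 71.2 CPM). miR-144-3p did not pass (1.54).

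Epithelial miR-200 family miRNAs and miR-375, which mark epithelia and endocrine cells such as those of pituitary and pineal, were low and uneven. Of 5 tested members 2 were higher, 1 of which reached the filter's cut-off in cerebellum alone, and 3 did not pass. miR-375-3p had 12.0, 28.7 and 72.7 CPM in cerebellum and 8.39, 11.3, 13.2, 11.8 and 15 CPM in cortex (1.59 ± 0.43), ranges that overlap. The summed level of the list was 20.1 to 127 CPM in cerebellum and 17.6 to 62.8 CPM in cortex, with 127 and 115 CPM in cerebellum libraries 124 and 96 and 20.1 to 53.1 CPM in the other 4. In the 3 other groups the contrast for miR-375-3p was 4.32, 2.04 and 2.04. The part of such tissue in the differences was not tested.

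The 5p to 3p ratio of a hairpin compares 2 products of the same precursor within a library and does not depend on scaling between libraries. Where an arm has few or no counts, the ratio does depend on the pseudocount of 0.5 and on depth. Of 123 hairpins with both arms tested, the ratio differed for 47 (38.2%, adjusted p from limma's test), 15 higher (12.2%) and 32 lower (26%) in cerebellum. The 32 include miR-10a (-1.26 ± 0.26), whose 3p arm had 0 counts in every cortex library, so the pseudocount set its cortex ratio. The largest well-measured shift was that of miR-337, with log2 ratios of 1.63 ± 0.19 in cerebellum and 3.92 ± 0.29 in cortex, a difference of -2.29 ± 0.15 (adjusted p = 8.54e-07). miR-323 (-1.91 ± 0.28) and miR-92b (-1.80 ± 0.15) shifted the same way, as did miR-3087 (-2.77 ± 0.85) and miR-670 (-1.95 ± 0.59), whose weaker arms averaged 0.404 and 0.316 CPM in cortex. The ratio rose for miR-1298 (1.88 ± 0.23), miR-676 (1.54 ± 0.10), miR-340 (1.32 ± 0.15), miR-671 (1.20 ± 0.24) and miR-30b (1.10 ± 0.11). In 36 of the 123 hairpins both arms were higher in cerebellum and in 36 both were lower, in 32 only 1 arm was called, and in 4 the arms were called in opposite directions (miR-25, miR-33, miR-337 and miR-382), all 4 with a shifted ratio. In the fit of all cerebellum and cortex libraries miR-337-3p and miR-382-5p no longer passed edgeR's test (adjusted p = 0.167 and 0.147). With both arms at 10 CPM or more in each region, 23 of 42 hairpins were called, 9 higher and 14 lower. The median difference of these 42 was 0.04, against -0.12 over all 123. With a pseudocount of 2, 55 of the 123 were called, 20 higher and 35 lower. Hairpins with both arms higher include miR-10a, miR-10b, miR-183 and miR-1298, whose 3p arms reached the filter's cut-off in cerebellum alone.

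Neighbouring hairpins can be compared by direction. Among 23 genomic clusters with at least 2 tested hairpins no more than 10 kb apart, 18 had at least 2 called arms. All called arms were higher in 7 of these and lower in 5, and 6 held both directions. Clusters with 1 direction included miR-195a/497a, miR-183/96/182 and miR-34b/34c on the higher side and miR-132/212 and miR-221/222 on the lower. On the higher side miR-183-3p, miR-96-5p, miR-34c-3p and miR-1912-3p reached the filter's cut-off in cerebellum alone, so the filter itself set their direction. Among the arms counted here, that leaves miR-34b-5p alone for miR-34b/34c and miR-764-3p alone for its cluster with miR-1912-3p. miR-34c-5p had no RefSeq entry and was not counted, but it reached the cut-off in both regions and was higher (2.59). In the host gene Clcn5 4 of 5 tested arms were higher and 1 lower, and in Mcm7, which holds miR-25, miR-93 and miR-106b, 5 of 6 were higher and 1 lower. Among families that share a seed, all 3 members of the miR-99a and miR-100 seed were higher, of the miR-130 and miR-301 seed 2 were higher and 1 lower, and of the miR-125 and miR-351 seed 1 higher and 2 lower.

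A RefSeq entry was found for 446 of the 522, and the sequences of 437 were used. Across these miRNAs, which share the libraries and are not independent replicates, the log2 fold change fell with GC content (Spearman's rho = -0.226, Pearson's r = -0.169). The third of the miRNAs with the lowest GC content (22.7% to 45.5%) had 64 higher and 37 lower of 146 and a median of 0.26, and the third with the highest (54.5% to 100%) had 35 higher and 62 lower of 146 and a median of -0.31. The length of the mature sequence showed no such trend (rho = -0.032). The kit and the region cannot be told apart in this trend.

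The same contrast could be made in 3 further pairs of groups, made of other libraries with the same kits and regions. All cerebellum and cortex libraries were fitted together for this. In that fit 372 of 630 tested miRNAs (59%) differed in naive wild type, 208 higher and 164 lower. In wild-type crush mice 384 of the 630 (61%) differed, 29.5% of all higher and 31.4% lower. In Thap1+/- naive mice 375 (59.5%) differed, 28.9% higher and 30.6% lower, and in Thap1+/- crush mice 383 (60.8%), 29.4% higher and 31.4% lower. Of the 367 called when naive wild type was fitted alone, 285 (77.7%) were called with the same sign in wild-type crush. The numbers were 270 (73.6%) in Thap1+/- naive and 255 (69.5%) in Thap1+/- crush. These are 79.8%, 78.0% and 71.2% of the miRNAs called in those groups among the same 522. In all 3 groups 237 were called with the same sign, 121 higher and 116 lower. Calls of opposite sign numbered 8, 6 and 24. Across miRNAs the fold changes had Pearson's r of 0.873, 0.895 and 0.839 with naive wild type. Of the 137 miRNAs of at least 100 CPM, 35 differed beyond 2-fold, and 34 of these were called with the same sign in all 3 other groups. The exception was miR-30b-5p.

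**Figure D5:**
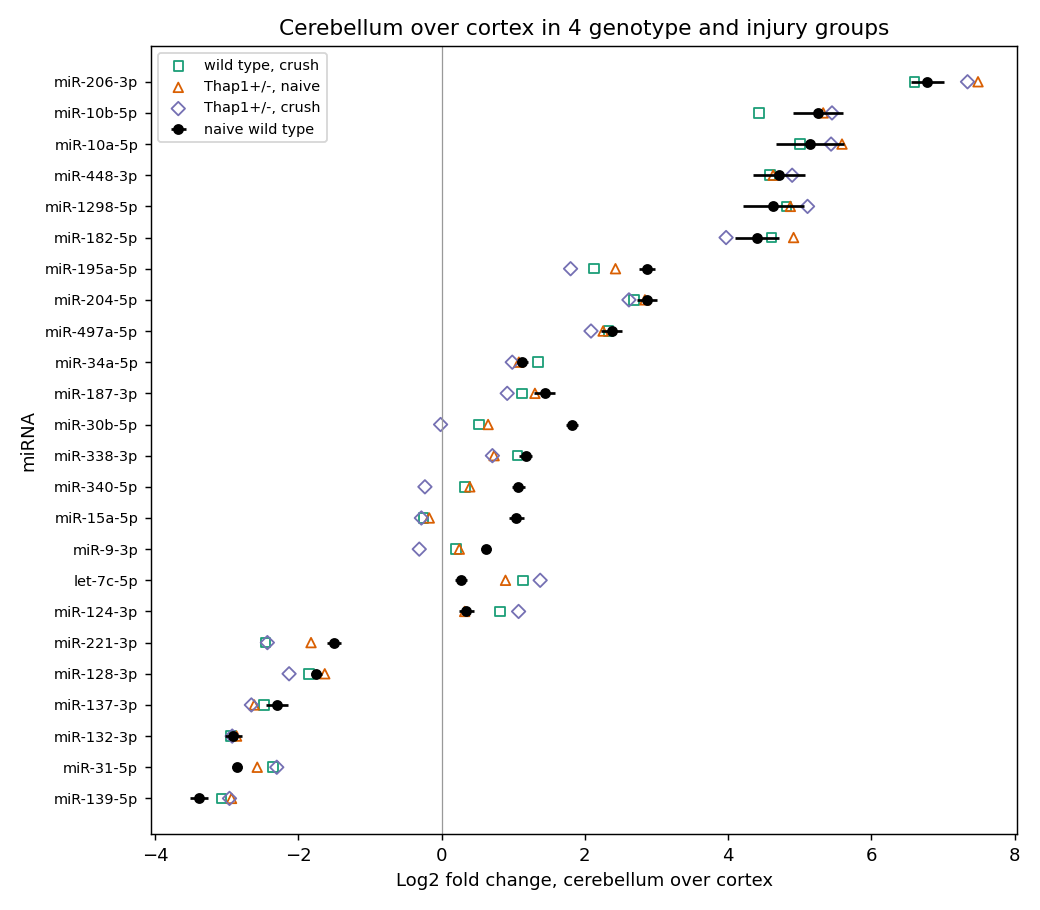
Log2 fold change of cerebellum over cortex (x axis) of 24 miRNAs (rows) in naive wild-type mice (filled circle) and in the 3 other genotype and injury groups (open symbols); bars are 1 standard error of the naive wild-type value. In edgeR's test of naive wild type against the mean of the other groups, miR-206-3p, miR-10a-5p and miR-132-3p did not pass. miR-30b-5p, miR-15a-5p, miR-340-5p and let-7c-5p passed it.

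The difference between the regions in naive wild type was also tested against its mean in the 3 other groups, in 1 fit of all cerebellum and cortex libraries. It differed for 211 of 630 miRNAs (33.5%), being higher for 127 (20.2%) and lower for 84 (13.3%), or 108 and 118 with relative log expression scaling and 116 and 119 with DESeq2. The miRNAs with the smallest adjusted p were miR-30b-5p, miR-341-3p, miR-340-5p, let-7a-1-3p/7c-2-3p and miR-186-5p. miR-30b-5p had 403, 469 and 504 CPM in cerebellum and 148, 129, 120.4, 128 and 128 CPM in cortex, a log2 fold change of 1.82 ± 0.09, against 0.52, 0.65 and -0.01 in the other groups. miR-340-5p gave 1.07 ± 0.09, against 0.33, 0.39 and -0.23, and miR-186-5p 0.64 ± 0.08, against -0.06, 0.07 and -0.51. miR-341-3p did not pass here (0.14 ± 0.13, adjusted p = 0.346), with -0.73, -0.81 and -1.05 in the other groups. miR-206-3p, miR-10a-5p, miR-10b-5p, miR-1298-5p, miR-448-3p, miR-182-5p, miR-204-5p, miR-497a-5p, miR-132-3p, miR-137-3p, miR-128-3p and miR-708-5p did not pass this test.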

How the data were processed

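Small RNA libraries of cerebellum and cortex were analysed from the deposited tables of raw counts per mature miRNA; per the submitters' processing notes featureCounts 1.6.4 and R 4.1.0 were used, while the aligner and build were not given in the sources used here. Columns were joined by miRNA name, and 284 further per-sample columns were not used. Labels could not be matched to columns by replicate, so libraries carry their column numbers.

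Counts were tested with edgeR 4.0.16 (TMM scaling, filterByExpr, quasi-likelihood F test, Benjamini-Hochberg adjusted p at 0.05; glmTreat for changes beyond 2-fold) in R 4.3.3. Arm ratios, log2 of 5p over 3p counts with a pseudocount of 0.5, were tested with limma 3.58.1. DESeq2 1.42.0 and limma-voom were alternatives, as were other scalings, filters, sets of libraries and leaving out each library. CPM are TMM-scaled. P-values set a difference against the spread between these samples, and they cannot tell the region from the kit. Depth was 9067330 to 12381200 counts per library, and miRNAs tested held 99.977% of them. The same column numbers occur in both regions. Deviations of same-numbered libraries from their group means correlated at 0.111 to 0.343 in 5 pairs, and those of differently numbered libraries at -0.282 to 0.236. These ranges overlap, so the correlations do not settle whether the numbers pair the samples. The main tests used no pairing, and the number entered as a block only in an alternative. The edgeR step was tested on simulated data.

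The members and lists were chosen with earlier results of these data known. Named are, among called miRNAs, the 15 largest changes each way at 100 CPM or more (mean of both regions) and the 5 largest each way at 10 to 100 CPM, the 5 most abundant of each region, list members (all of lists up to 10, otherwise the 3 largest each way and the 3 most abundant), the 5 most abundant with a 95% interval within 0.25 of 0, the 5 largest arm ratio changes each way, and the 5 smallest p of the comparison with other groups. Not every miRNA that meets the rule is described. miRNAs named outside it are said to be so or are defining markers. Sequences are from RefSeq (GRCm38.p6, 446 of 522 tested matched) and hosts from GENCODE on GRCm38.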

Additional observations from a re-analysis of the deposited data

Results flagged for a closer look

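A single library lay apart from the others of its group for 8 of 214 sets of values, where chance gives about 1 in 20. let-7a-1-3p/7c-2-3p had its highest cortex value, 6.75 CPM, in library 118. miR-1224-5p had its highest cerebellum value, 118 CPM, in library 31. miR-126a-3p had its highest cortex value, 27600 CPM, in library 124. miR-183-5p had its highest cortex value, 4.09 CPM, in library 96. miR-187-3p had its highest cortex value, 293 CPM, in library 31. miR-212-3p had its highest cerebellum value, 7.65 CPM, in library 118. miR-382-5p had its lowest cortex value, 4107 CPM, in library 118. miR-99a-5p had its lowest cortex value, 402 CPM, in library 124. 

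For 46 of the 104 miRNAs named above the difference between cerebellum and cortex differed between naive wild type and the mean of the 3 other groups. The test was edgeR's quasi-likelihood test over all miRNAs, in which 211 of 630 (33.5%) passed. Some miRNAs were named because they had the smallest p of this comparison, so the 46 are in part set by that choice. The values in parentheses are the log2 fold change in naive wild type minus that mean. It was higher in naive wild type for let-7a-1-3p/7c-2-3p (1.49), miR-30b-5p (1.48), miR-15a-5p (1.33), miR-133a-3p/133b-3p (1.15), miR-499-5p (1.10), miR-341-3p (1.06), miR-764-3p (1.05), miR-15b-5p (1.00), miR-340-5p (0.96), miR-186-5p (0.85), miR-195a-5p (0.80), miR-221-3p (0.78), miR-145a-5p (0.77), miR-142a-3p (0.77), miR-9-3p (0.62), miR-21a-5p (0.61), miR-322-5p (0.58), miR-212-3p (0.57), miR-99a-5p (0.57), miR-23a-3p/23b-3p (0.43), miR-130a-3p (0.31), miR-335-5p (0.30) and miR-134-5p (0.30). It was lower for miR-323-5p (-1.35), miR-184-3p (-0.94), miR-486a-5p/486b-5p (-0.90), miR-744-5p (-0.89), let-7b-5p (-0.86), miR-466i-5p (-0.84), miR-485-5p (-0.82), let-7c-5p (-0.81), miR-1224-5p (-0.76), miR-1981-5p (-0.74), miR-139-3p (-0.71), miR-382-5p (-0.66), miR-676-3p (-0.55), miR-30a-3p (-0.54), miR-669c-5p (-0.54), miR-337-5p (-0.49), miR-181a-5p (-0.46), miR-31-5p (-0.39), miR-139-5p (-0.35), miR-16-5p (-0.34), miR-26b-5p (-0.31), miR-30e-3p (-0.29) and miR-126a-3p (-0.28). With the replicate number as a block 40 of the 46 still passed, and miR-130a-3p (0.28, adjusted p = 0.0523), miR-134-5p (0.29, 0.0929), miR-139-5p (-0.33, 0.0658), miR-181a-5p (-0.42, 0.0640), miR-26b-5p (-0.30, 0.0634) and miR-669c-5p (-0.51, 0.0747) did not.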

How the results depend on the processing

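The number of miRNAs that differed, 367, stayed between 362 and 397 under 3 other scalings, without let-7 and miR-98, without a low-count filter, with more libraries in the fit, with DESeq2 and with limma-voom. A filter of 10 CPM in 5 libraries left 288 miRNAs to test, of which 237 differed, and 84 beyond 2-fold. With both arms at 10 CPM or more, 23 of 42 hairpins differed in their ratio; fewer were tested in both cases. Leaving out each library in turn gave 350 to 370 miRNAs, 129 to 146 beyond 2-fold, 44 to 58 hairpins, and 184 to 224 miRNAs whose difference in naive wild type stood apart from the other groups. With the replicate number as a block, which treats same-numbered libraries as pairs, 365 miRNAs differed, 141 beyond 2-fold. The block gave 55 hairpins with a shifted ratio and 177 miRNAs apart from the other groups. No named miRNA's call between cerebellum and cortex changed with it. The block for the comparison with other groups was added after seeing the data. Of 104 named miRNAs none reversed, 93 kept their call under every alternative run and 11 did not. Under upper-quartile scaling let-7c-5p (0.13), miR-124-3p (0.20), miR-145a-5p (0.34), miR-16-5p (0.18), miR-1a-3p (0.32), miR-30a-5p (0.10) and miR-9-5p (0.14) no longer passed. With library totals alone miR-145a-5p (0.42) and miR-30a-5p (0.14) were lost and miR-30a-3p (-0.17) gained. In the fit of all cerebellum and cortex libraries miR-337-3p (0.99), miR-382-5p (-0.22), miR-124-3p (0.39) and miR-142a-3p (-0.30) were lost. miR-142a-3p was also lost without a filter and in the fit of all 17 naive wild-type libraries (-0.31 each), and without cerebellum library 136 or 31 or cortex library 118 or 124 (-0.30 to -0.28), and miR-30a-5p with relative log expression scaling, the stricter filter or DESeq2 (0.20 each) and without cerebellum library 124 or cortex library 31 or 67 (0.19 to 0.21). The cause was not tested. The 5 or 6 libraries a region and the shared kit of each region limit what the contrast can show, and miRNAs under about 1 CPM rest on few counts.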
